A study of Mus musculus with 24 samples.

Results

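The vitamin D receptor gene Vdr and 4 genes of calcium handling, Trpv6, S100g, Cyp24a1 and Atp2b1, were examined for binding of the intestinal homeobox transcription factor Cdx2. A Cdx2 peak was taken as near a gene when its summit lay in the gene body or up to 50 kb to either side (mm10, GENCODE vM21), and overlapping peaks of the 12 lists (1 bp or more) were joined into regions. By this rule 26 of the 61454 regions of the genome lay near the 5 genes, namely 13 near Atp2b1, 6 near S100g, 4 near Vdr, 2 near Trpv6 and 1 near Cyp24a1. Regions are numbered within a gene by position, so that Vdr site 2 is the second Vdr region from the start of the chromosome.

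Cdx2 ChIP-seq was performed by ChIPmentation, in which a transposase adds sequencing adapters to chromatin held on the antibody beads. The libraries came from colon organoids, which are epithelial cultures grown from stem cells, of 3 mice (female, 8 weeks old). All organoids, from either end of the colon, carried a heterozygous Cre-inducible BRAFV600E allele and a heterozygous tdTomato reporter. No Cre treatment is stated for these libraries, and the Braf allele is normal until Cre acts on it. There were 4 groups of 3 libraries each, from proximal or distal colon in either of 2 media, named WENR-plus and WENR-minus. WENR-plus medium holds the niche factors Wnt3a, EGF, Noggin and R-spondin 1, in which all cultures had been kept for 4 months. For WENR-minus, organoids spent 2 days in WENR-plus medium after plating and then 3 days without those factors. The matched input libraries, 12 in number, were not analysed here.

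In the intestine, calcium enters an absorbing cell through the channel Trpv6, crosses the cytosol bound to the small calbindin S100g and leaves through plasma membrane pumps such as Atp2b1. The receptor Vdr binds active vitamin D and, with a retinoid X receptor, activates Trpv6, S100g and Cyp24a1, whose product degrades the hormone. Cdx2 has been described as a binder of the human VDR promoter and of the rat S100g promoter. Peak lists hold no expression, so nothing below says how much RNA any gene made. Each of the colon epithelial marker genes Krt20, Car1, Vil1 and Cdh17 had at least 1 region called in all 12 libraries.

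Sequences are shown for the regions that the comparisons below turn on, because they let the peak summits be read against the Cdx2 motif. Each runs 5′ to 3′ on the plus strand of mm10 over 121 bases centred on the median summit of the region, and is read from the GRCm38 genome. Capitals mark the Cdx2 motif, searched as TTTAT followed by G or T and then by A or G, on both strands within 50 bp of the median summit. A match on the minus strand reads as its reverse complement, which ends in ATAAA. The windows are Vdr site 2 (chr15:97925721-97925841), Vdr site 3 (chr15:97927080-97927200), Trpv6 site 2 (chr6:41662959-41663079), S100g site 5 (chrX:162987205-162987325), Atp2b1 site 5 (chr10:98897950-98898070) and Atp2b1 site 8 (chr10:98950743-98950863).
Vdr site 2: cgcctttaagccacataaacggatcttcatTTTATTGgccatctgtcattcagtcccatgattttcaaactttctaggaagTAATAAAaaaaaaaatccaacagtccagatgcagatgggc
Vdr site 3: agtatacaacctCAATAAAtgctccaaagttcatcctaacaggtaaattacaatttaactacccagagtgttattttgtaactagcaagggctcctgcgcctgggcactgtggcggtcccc
Trpv6 site 2: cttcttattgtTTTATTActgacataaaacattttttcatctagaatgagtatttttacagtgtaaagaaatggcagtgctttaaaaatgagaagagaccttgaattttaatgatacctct
S100g site 5: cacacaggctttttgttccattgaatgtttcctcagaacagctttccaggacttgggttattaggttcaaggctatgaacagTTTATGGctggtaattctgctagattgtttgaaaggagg
Atp2b1 site 5: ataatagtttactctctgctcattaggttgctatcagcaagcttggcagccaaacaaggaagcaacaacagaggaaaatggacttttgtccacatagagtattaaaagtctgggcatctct
Atp2b1 site 8: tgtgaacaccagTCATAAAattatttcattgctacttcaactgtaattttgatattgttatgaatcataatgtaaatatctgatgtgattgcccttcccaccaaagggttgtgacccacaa

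Vdr site 2 held 1 match on each strand, starting 30 bp to the left and 21 bp to the right of the median summit. Atp2b1 site 5 held none within 50 bp. Taking each library's own summit, a Cdx2 motif lay within 50 bp at 10 of 12 summits of Vdr site 2, 4 of 10 of Vdr site 3, 2 of 3 of Trpv6 site 2, 4 of 6 of S100g site 5, 2 of 8 of Atp2b1 site 5 and 6 of 7 of Atp2b1 site 8. Over the 26 regions, 15 held the motif within 50 bp of the median summit, beside 59.3% of all regions. A GATA motif (TGATAA or AGATAA, both strands) lay within 150 bp of the median summit in 12 of the 26, beside 45.3% of all regions. An HNF4 motif (CAAAG followed by TCCA or by GTCA) was found in 0 of the 26 and in 2.68% of all regions. A vitamin D receptor motif was found in 0 of the 26 and in 0.0732% of all regions, searched as 2 half-sites in the same direction with 3 bases between, each of A or G, then G, then G or T, then TCA, on both strands. A Cdx2 motif that ends in TGA can run into a GATA motif that begins so, and the HNF4 motif that ends in GTCA holds 1 receptor half-site.

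The regions lay away from the promoters of the 5 genes. Of the 26, 15 were in introns, 7 of them in introns of Atp2b1 itself and 8 in introns of a neighbouring gene, and 11 lay between genes. None lay in the body of Vdr, Trpv6, S100g or Cyp24a1. Atp2b1 alone had a region called in at least 2 libraries within 3 kb of a start site, and that region, Atp2b1 site 10, lay 2882 bp before the start of a short internal transcript, 68.84 kb into the gene. By the same rule 15.2% of the 21938 protein-coding genes had such a region. At the main start of Atp2b1, the nearest regions were 5.24 kb inside the gene and 16.40 kb upstream. The first of these was called in 1 library only, and the second, Atp2b1 site 5, in 8. Windows grow with the length of the gene, so that regions were also counted per Mb. Atp2b1 had 61.4 and S100g 58.5 regions per Mb of window, above 94.7% and 93.7% of protein-coding genes. Vdr had 25.6, Trpv6 17.3 and Cyp24a1 8.7 per Mb, beside 18.8 in the median gene window.

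**Figure D1:**
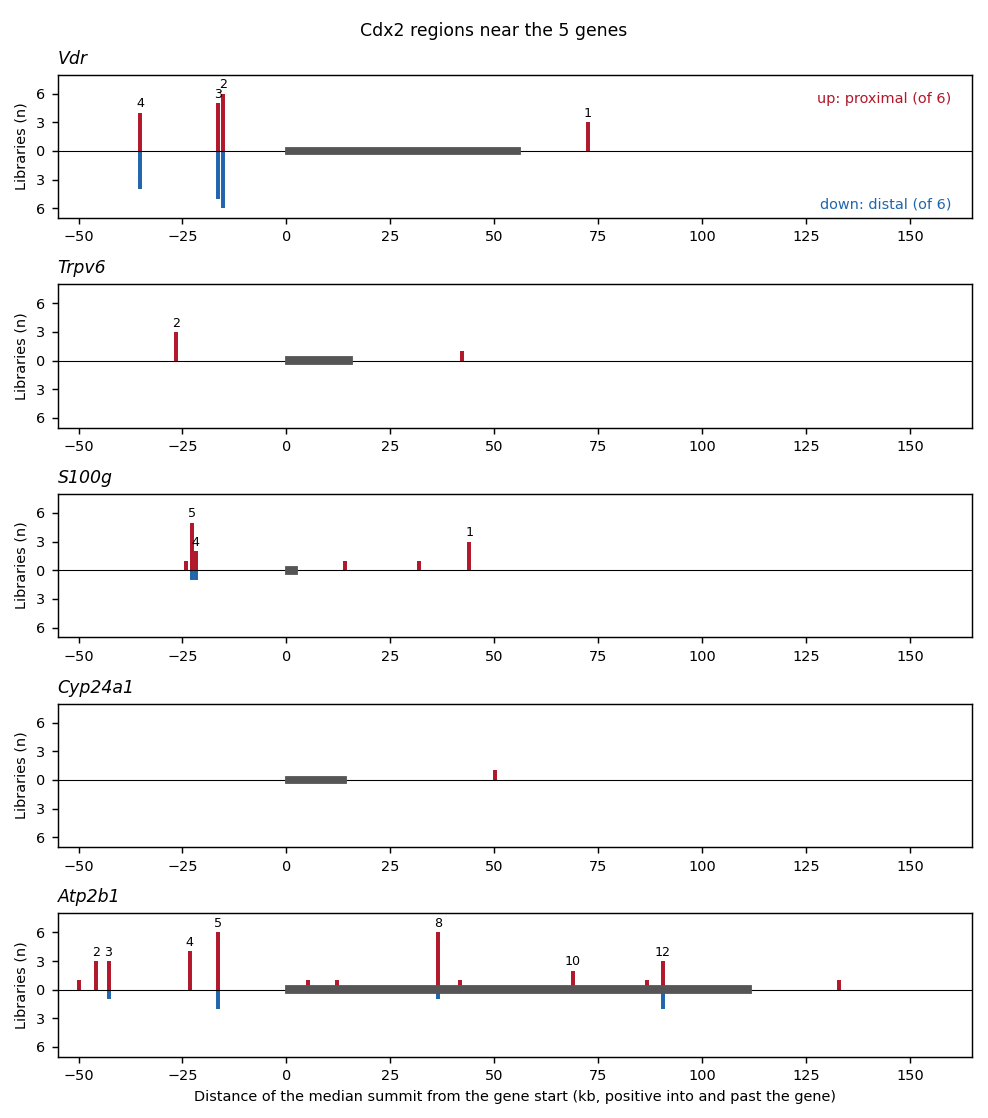
Position of the 26 regions relative to the start of each gene (x axis, kb; grey bar, gene body) and the number of libraries with a peak (y axis; red upward, proximal of 6; blue downward, distal of 6). Numbers name the regions called in at least 2 libraries. The 3 regions upstream of Vdr reach equally far up and down, and those of the other genes reach farther up.

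The first comparison asked how often each region was called. Of the 26 regions, 11 were called in 1 library (42.3%, beside 42.2% of all regions), 15 in at least 2, 6 in at least 6 and 1 in all 12. The region called in all 12 libraries was Vdr site 2, and regions of that kind made up 3.38% of all regions and were found near 12.9% of protein-coding genes. All 11 regions of 1 library came from a proximal library, as did 86.6% of such regions in the genome, at fold percentiles of 3.16 to 65.8. The fold percentile is the rank of a peak's fold enrichment over input within its own list, from 0 for the weakest peak to 100 for the strongest.

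The lists differed in length, and so did the number of peaks near the 5 genes. In proximal WENR-plus organoids 16, 16 and 9 peaks lay near them for replicates 1, 2 and 3, in lists of 32033, 42192 and 13592 peaks. In proximal WENR-minus organoids there were 17, 4 and 7, in lists of 27921, 15940 and 11409. In distal WENR-plus organoids there were 3, 5 and 1, in lists of 7378, 13371 and 5608, and in distal WENR-minus organoids 7, 6 and 2, in lists of 21040, 7895 and 7904. The proximal and distal counts overlapped, with the longest lists holding the highest counts. Per 1000 peaks of a list, proximal libraries had 0.502 ± 0.160 and distal libraries 0.384 ± 0.202 peaks near the 5 genes (SD, n = 6 each), so that the 0.118 between them was smaller than either SD. It rose to 0.303 without replicate 2 and to 0.267 in lists reduced to equal length, above either SD of those settings, and turned to −0.0337 without replicate 3. The lists give no read numbers, and the read totals of the libraries were not used here, so that the part of depth in the counts was not tested.

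**Figure D2:**
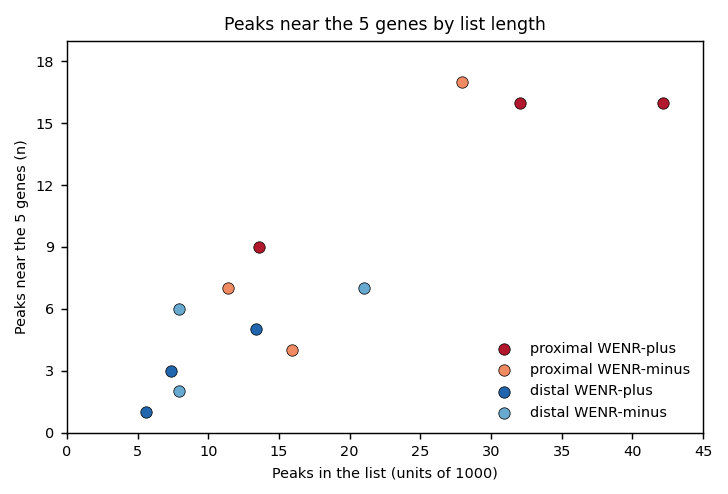
Number of peaks near the 5 genes (y axis) against the length of the list in units of 1000 peaks (x axis) for the 12 libraries, coloured by group. The 3 libraries with 16 or 17 peaks are the 3 longest lists, and the shortest list holds 1.

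Vdr, the receptor, had 3 regions upstream that were called in as many distal as proximal libraries, as were 10.3% of all regions. Vdr site 2 (chr15:97925333-97926213) lay between genes 15.15 kb upstream of the Vdr start, which is the nearest start of a protein-coding gene. Its fold enrichment was 7.23, 7.65 and 10.6 in proximal WENR-plus, 10.3, 7.04 and 5.92 in proximal WENR-minus, 6.70, 10.5 and 9.52 in distal WENR-plus and 9.04, 7.72 and 7.52 in distal WENR-minus libraries. Those values overlapped throughout, with a mean of 8.12 ± 1.89 for proximal and of 8.5 ± 1.43 for distal libraries (SD, n = 6 each). In rank it was called at the 48.1 to 91.2 percentile. Its mean percentile of 77.3 was above that of 38.0% of the 2079 regions called in all 12 libraries, so that it was a lower than median member of this class, whose median was 82.0.

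The site comparison for Vdr site 2 was made in a fit over those 2079 regions, on log2 fold enrichment centred in each library on the median of the same regions. On this scale the 6 proximal libraries had −0.53 ± 0.28 and the 6 distal libraries −0.06 ± 0.15 (SD), and the values of individual libraries ran from −0.78 to −0.14 and from −0.24 to 0.16. The difference, proximal minus distal, was −0.47 (SE 0.16), with a Benjamini-Hochberg adjusted p of 0.058 (limma), which did not pass the threshold of 0.05. That fit had no block and took the 12 libraries as independent. With a −log10 q of at least 5 asked of each peak the difference was −0.50 and passed (adjusted p = 0.037, limma). With a replicate block it was −0.47 and passed (adjusted p = 0.048, limma), as did 469 of the 2079 regions. In the main fit 345 of the 2079 regions passed (16.6%), 191 of them higher in proximal and 154 higher in distal organoids. The count was 99 without replicate 1 and 48 without replicate 2. Without centring, 703 regions passed, 685 higher in proximal and 18 higher in distal, since the median region was higher in proximal organoids by 0.37 on the log2 scale. The difference at Vdr site 2 was then −0.08 (SE 0.19, adjusted p = 0.75). The values on the 2 scales differ by that shift of the median region.

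The medium did not move Vdr site 2 past the test. The difference of WENR-minus from WENR-plus was −0.01 (SE 0.16, adjusted p = 0.995, limma), with fold means of 7.92 ± 1.53 and 8.71 ± 1.73 (SD, n = 6 each). Over the 2079 regions 14 passed this test (0.673%), against 0 without replicate 1 or 2 (190 and 183 at an unadjusted p under 0.05, limma) and 5 without replicate 3. With a replicate block 80 passed, and Vdr site 2 had an adjusted p of 0.992 (limma). The medium effect differed between the sites by 0.15 (SE 0.32, adjusted p = 0.998), and 0 of the 2079 regions (0%) passed that test in limma, with 89 at an unadjusted p under 0.05.

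**Figure D3:**
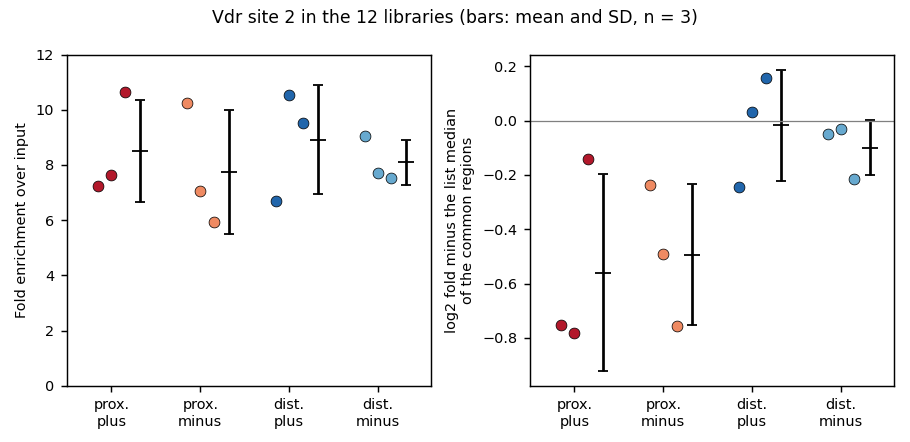
Vdr site 2 in the 12 libraries, as fold enrichment over input (left) and as log2 fold minus the median of the 2079 common regions of the same library (right), by group. Points are libraries and bars the mean and SD of 3. Fold enrichment overlaps in all groups, and on the centred scale the distal points lie from −0.24 to 0.16 and the proximal points from −0.78 to −0.14.

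Vdr site 3 (chr15:97926694-97927607) lay 16.51 kb upstream of the Vdr start, with its median summit 1359 bp from that of Vdr site 2. It was called in 5 proximal and 5 distal libraries. Its fold percentile was 86.3, 90.6 and 57.1 in proximal WENR-plus, 72.1 and 10.1 in replicates 1 and 3 of proximal WENR-minus, 51.8 and 24.9 in replicates 1 and 2 of distal WENR-plus, and 82.2, 40.1 and 73.0 in distal WENR-minus libraries. The proximal and distal values overlapped. The 2 libraries without a peak there were proximal WENR-minus replicate 2 and distal WENR-plus replicate 3.

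The other Vdr regions lay farther from its start. Vdr site 4, chosen after its values were seen, lay 35.16 kb upstream and was called in 4 proximal libraries at the 31.7 to 84.1 percentile and in 4 distal libraries at the 13.0 to 75.1 percentile. None of its 8 summits had a Cdx2 motif within 50 bp. The peak of distal WENR-minus replicate 2 had a −log10 q of 3.21. With a −log10 q of at least 5 asked of each peak, Vdr site 4 was called in 4 proximal and 3 distal libraries. Its nearest protein-coding start was that of Tmem106c, not Vdr. On the other side of Vdr, past its end, Vdr site 1 lay in an intron of the deacetylase gene Hdac7 and was called in 3 proximal and 0 distal libraries, at the 45.8 to 60.6 percentile. Of the 26 regions, the 3 upstream of Vdr (sites 2, 3 and 4) alone had equal numbers of distal and proximal libraries. Equal numbers were found at 10.3% of all regions, so that a count of 3 was near the background. The other 23 of the 26 were called in more proximal than distal libraries, beside 80.6% of all regions. None of the 26 was called in more distal libraries, beside 9.08%. At Vdr site 4 the equal numbers did not hold with the q limit.

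Because proximal lists were longer, each list was also reduced to its 5608 peaks of smallest p-value, the length of the shortest list. Then 7 of the regions near the 5 genes were left. All 3 upstream Vdr sites were among them and were called in fewer proximal than distal libraries, namely 3 and 6 for Vdr site 2, 3 and 4 for Vdr site 3 and 1 and 2 for Vdr site 4. The 4 regions near Atp2b1 and S100g that were left had the other direction, with 5 proximal and 0 distal libraries for Atp2b1 site 8, 4 and 1 for Atp2b1 site 5, 4 and 0 for S100g site 5 and 2 and 0 for Atp2b1 site 12. Over all 15206 regions of the reduced lists, 37.2% had more proximal and 43.2% more distal libraries.

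**Figure D4:**
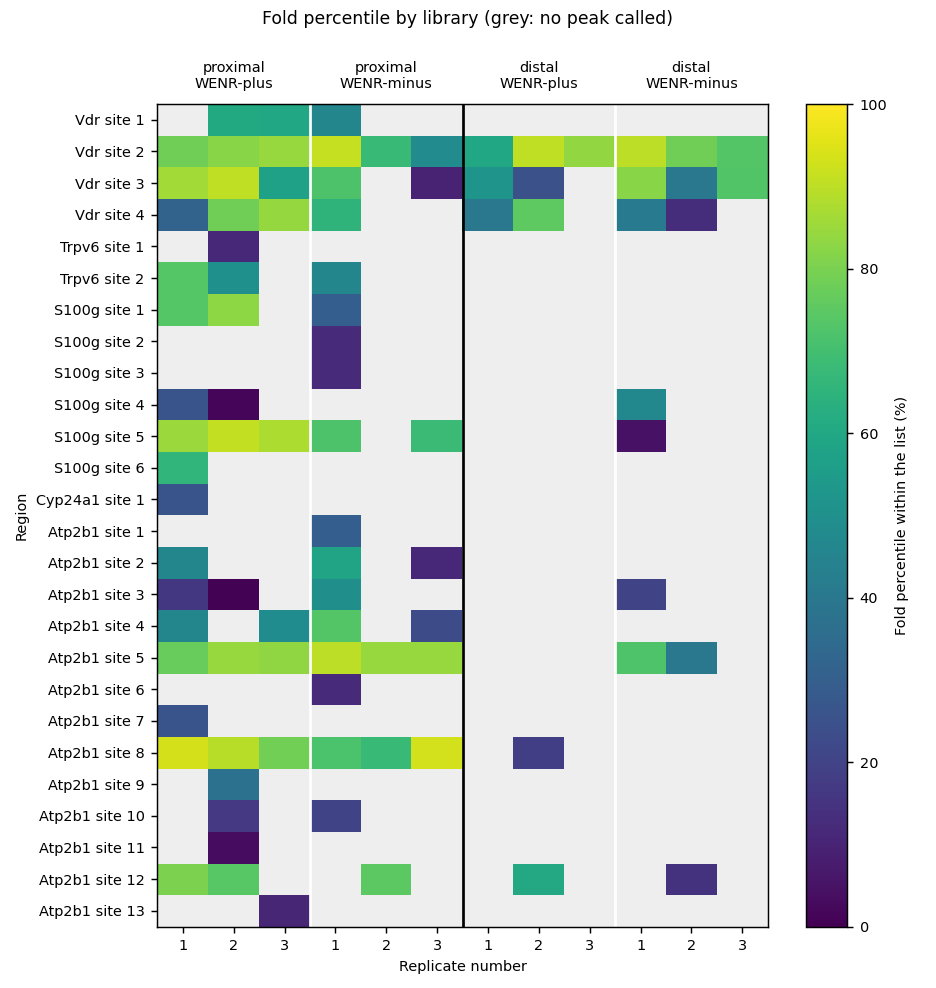
Fold percentile (colour, 0 to 100) of the 26 regions (rows) in the 12 libraries (columns, by group and replicate number), with grey where no peak was called. Coloured cells fill the whole row for Vdr site 2, and most of the rows below the Vdr sites are coloured only left of the black line, in proximal libraries.

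Trpv6, the entry channel, had 2 regions nearby, both seen in proximal lists only. Trpv6 site 2 (chr6:41662789-41663116) lay 26.61 kb upstream of Trpv6, in an intron of Trpv5, the related calcium channel next to it, so that the region was near both. It was called in proximal WENR-plus replicates 1 and 2 at the 73.8 and 50.2 percentile and in proximal WENR-minus replicate 1 at the 45.8 percentile. These were the 3 longest lists of the 12. Trpv6 site 1 was called in 1 library at the 11.4 percentile. Neither was called in a distal library.

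S100g, the calcium carrier of the cytosol, lies on the X chromosome, and its main region was found in proximal libraries. S100g site 5 (chrX:162986927-162987557) lay 22.67 kb upstream of S100g, in an intron of Ctps2, a gene of CTP synthesis. It was called at the 85.0, 90.9 and 87.5 percentile in proximal WENR-plus and at 71.9 and 68.2 in replicates 1 and 3 of proximal WENR-minus libraries. In distal libraries it was called once, in distal WENR-minus replicate 1, at the 4.72 percentile. That library had the longest distal list, with 21040 peaks. No distal value reached the proximal ones, but proximal WENR-minus replicate 2 had no peak there.

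With the libraries of the 2 media averaged for each site and replicate number, and 0 where no peak was called, S100g site 5 had percentiles of 67.2 ± 18.9 in proximal and 0.787 ± 1.36 in distal lines (SD, n = 3 each). The 3 proximal means were above the 3 distal means, and a two-sided exact permutation test gave p = 0.1, the lowest that 3 lines against 3 can reach (Benjamini-Hochberg adjusted p = 0.511 over 35518 regions). Proximal lines lay wholly above distal lines in 18.1% of those regions, and wholly below in 1.49%. The whole cultures were measured together, so that binding in fewer cells and weaker binding per cell cannot be told apart. Of the other 5 regions near S100g, S100g site 1 was called in 3 proximal libraries, S100g site 4 in 2 proximal libraries and 1 distal library, and the other 3 in 1 proximal library each. S100g site 4 was 905 bp from S100g site 5.

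Cyp24a1, whose product degrades active vitamin D, had a single region, Cyp24a1 site 1 (chr2:170446996-170447235). It was called in proximal WENR-plus replicate 1 only, at a fold of 4.44 and the 26.1 percentile, and lay 50.11 kb downstream of the gene start. The start of Pfdn4 lay 0.7 kb from that of Cyp24a1, so that promoter peaks of the 2 genes could not have been separated. No such peak was in any list.

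Atp2b1, the exit pump, had the most regions of the 5 genes. As many as 13 regions were found near 2.87% of protein-coding genes, and the median gene had 2. Of the 13, 7 lay in introns of Atp2b1 and 6 outside it, 6 were called in 1 library and 9 in no distal library, beside 42.2% and 56.4% of all regions. Atp2b1 site 5 (chr10:98897538-98898458), 16.40 kb upstream of the gene start, was called at the 76.8, 84.6 and 83.2 percentile in proximal WENR-plus and at 90.0, 84.8 and 84.4 in proximal WENR-minus libraries. In distal libraries it was called in WENR-minus replicates 1 and 2, at the 72.4 and 40.1 percentile, and in no WENR-plus library. All 6 proximal values were above both distal ones. The line means were 84.0 ± 0.644 in proximal and 18.7 ± 18.1 in distal lines (SD, n = 3 each, two-sided exact permutation p = 0.1, adjusted p = 0.511).

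Atp2b1 site 8 (chr10:98950430-98950992), chosen after its values were seen, lay 36.40 kb into the gene in an intron and 52.8 kb from Atp2b1 site 5. It was called at the 93.7, 89.3 and 78.6 percentile in proximal WENR-plus and at 71.8, 67.3 and 93.1 in proximal WENR-minus libraries. The only distal call was in distal WENR-plus replicate 2, at the 18.7 percentile. Every proximal value was above it. The line means were 82.3 ± 3.81 in proximal and 3.12 ± 5.40 in distal lines (SD, n = 3 each, two-sided exact permutation p = 0.1, adjusted p = 0.511). With Vdr site 1, S100g site 5 and Atp2b1 site 5, it was 1 of 4 regions whose proximal lines lay wholly above the distal lines. Those were 4 of the 15 regions tested near the 5 genes, beside 18.1% of the 35518 regions in at least 2 libraries. The reverse held for 0 of the 15, beside 1.49%.

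By counts of libraries, 0 of the 26 regions were called in every proximal and no distal library, beside 1.04% of all regions. Without replicate 2 there were 2, Atp2b1 sites 4 and 8. Fewer libraries then have to meet the rule. The share of all regions in that setting was not counted, so that the 2 cannot be set against a background. Atp2b1 site 8 was called in every proximal and at most 1 distal library, a pattern of 1.73% of all regions. Atp2b1 site 8 and S100g site 5 were called in at least 5 proximal and at most 1 distal library, beside 3.78% of all regions. The reverse, at least 5 distal and at most 1 proximal library, was found at 0 of the 26 and at 0.213% of all regions. With a −log10 q of at least 5 asked of each peak, the distal calls of both regions were lost. Atp2b1 site 8 was then called in 6 proximal and 0 distal libraries and S100g site 5 in 5 and 0. The shares of all regions with these patterns at that limit were not counted.

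The other Atp2b1 regions were weaker or rarer. Atp2b1 site 12, in an intron 90.52 kb into the gene and 3479 bp past the start of an internal transcript, was called in 3 proximal libraries at the 73.8 to 80.4 percentile and in 2 distal libraries at 14.5 and 60.4. Atp2b1 site 10, the region nearest to a start site among those called in at least 2 libraries, was called in 2 proximal libraries at the 16.6 and 20.6 percentile. Atp2b1 site 11, 202 bp before the start of an internal transcript, was called in 1 library at the 3.16 percentile. The values near internal starts were thus low in rank except for Atp2b1 site 12.

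**Figure D5:**
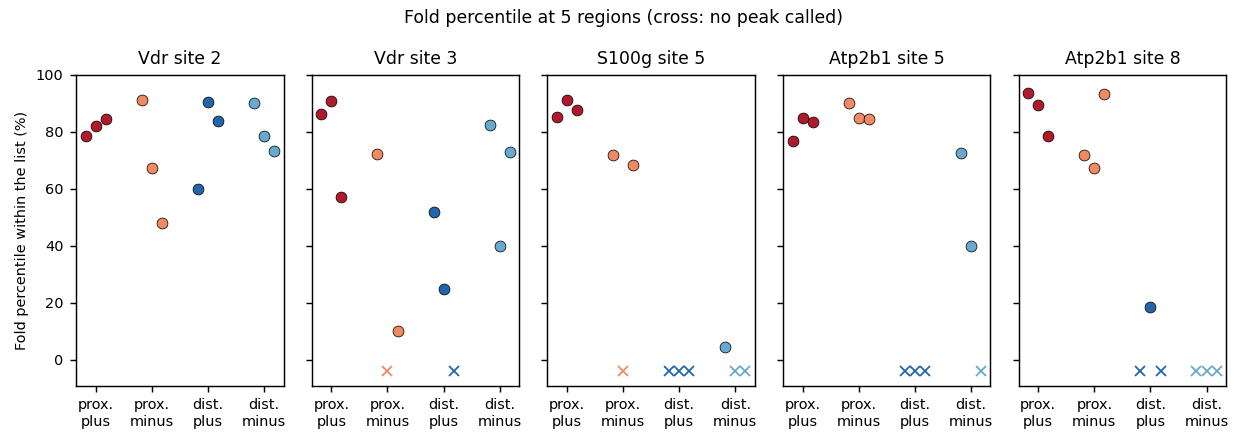
Fold percentile within the list (y axis) at 5 regions, by group (x axis), with 1 point for each of 3 libraries and a cross where no peak was called. Vdr sites 2 and 3 have points in all 4 groups, and S100g site 5 and Atp2b1 sites 5 and 8 have 5 or 6 proximal points and 1 or 2 distal points.

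In each library the gene was also given the highest fold percentile of its window, or 0 with no peak, and compared with all other protein-coding genes over the 12 libraries. The values nearest to Vdr were those of Ggcx, Mat2a and Sh2d6, 3 neighbours on chromosome 6 that share a region (Pearson r = 0.916 for each). For S100g they were Prdm1 (0.983), Sel1l3 (0.980) and Rbm33 (0.979), and for Atp2b1 Izumo3 (0.989), Nufip2 and Cryba1 (0.984 each). For Trpv6 they were 2300009A05Rik (0.999), Zfp174 and Zfp597 (0.998 each), with 524 genes over 0.9. For Cyp24a1, 369 genes were tied, since all had a peak in the same library alone, and none is named. These values describe likeness over libraries that share list length and site, and many genes with no peak in most libraries reach a high r by that alone.

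The other genes of the pathway, 24 in number, were described by the same counts. Of these, 21 had at least 1 region (87.5%, beside 84.5% of protein-coding genes) and 3 had a region called in all 12 libraries (12.5%, beside 12.9%). Those 3 were Rxrb, a retinoid X receptor that partners Vdr, Casr, the calcium-sensing receptor, and Slc8a1, a sodium/calcium exchanger. Rxrb had 2 such regions, the stronger at a median percentile of 96.6, and the best regions of Casr and Slc8a1 had 93.3 and 93.6. From the gene start these lay at −47.8 kb for Rxrb, 2.7 kb for Casr and 185.9 kb for Slc8a1. Longer genes have longer windows, and the shares of genes were not adjusted for this. A region called in at least 2 libraries lay within 3 kb of a start site for 6 of the 24 (25%, beside 15.2%), namely the coactivator Ncoa1, the corepressor Ncor1, the vitamin D hydroxylase Cyp2r1, Casr, Slc8a1 and the claudin Cldn15. A region of at least 5 proximal and at most 1 distal library was found near 7 of the 24, beside 13.3% of protein-coding genes. Among them were the pump gene Atp2b4 and Med1 with 6 proximal libraries and 1 distal library, and Pdia3 with 6 and 0. There was no region near Rxra, Cyp27b1, whose product makes active vitamin D, or Atp2b3.

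At the limit of the 50 kb rule, the farthest region inside lay 35.2 kb from the gene body for Vdr, 26.6 kb for Trpv6, 41.4 kb for S100g, 35.7 kb for Cyp24a1 and 49.9 kb for Atp2b1. The nearest region outside lay at 77.1, 65.5, 57.1, 74.1 and 85.1 kb in the same order, and was called in 2, 1, 4, 2 and 4 libraries.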

How the data were processed

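Cdx2 ChIPmentation peak lists of 12 libraries (2 colon sites, 2 media, 3 replicates each) were analysed. Per the study's methods and the submitters' processing notes, reads were trimmed by the authors (Trimmomatic 0.39), mapped to mm10 (Bowtie2 2.4.5) and freed of duplicates (SAMtools 1.13), and the authors called peaks for each library with MACS2 2.2.7.1 at a q-value limit of 0.01 against the matched input. The deposited columns are a score, a fold enrichment at the summit (a ratio to the local background), −log10 p and −log10 q. The score was not used. The deposited summit was placed from its offset. The lists give no read numbers, and the read totals of the libraries were not used here. The fold of a library therefore depends on its depth and input, and it was used as a percentile within the list, or as a log2 value centred on the median of the regions called in all 12 libraries.

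Overlapping peaks (1 bp or more) of the autosomes and chromosomes X and Y were merged, and gene windows came from GENCODE vM21 on GRCm38, the same assembly as mm10. Regions called in all 12 libraries were tested with limma 3.58.1 in R 4.3.3 (4 group means, empirical Bayes with trend, Benjamini-Hochberg adjustment), which was tested on simulated data. Other regions were tested by two-sided exact permutation of 6 lines (site and replicate number, mean of the 2 media, 20 labelings). Only replicate numbers are given in the labels, and whether the same number marks the same mouse is not given in the sources used here. All 5 genes were named. The regions described one by one were those called in at least 9 libraries, those within 3 kb of a start site of the gene in at least 2 libraries, and the most often called region of each gene. Others are said to be chosen after their values were seen, or are given by counts and ranges. The members and lists were chosen with earlier results of these data known. Alternatives were a −log10 q minimum of 5, lists of equal length, flanks of 25 and 100 kb, summits grouped within 150 bp, other scales of fold, a replicate block and leaving out each replicate number.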

Additional observations from a re-analysis of the deposited data

Results flagged for a closer look

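At Vdr site 3 the medium went with opposite changes at the 2 colon sites. With 0 where no peak was called, the fold percentile changed from WENR-plus to WENR-minus medium by −14.2, −90.6 and −47.0 for replicates 1, 2 and 3 of the proximal colon, and by 30.4, 15.2 and 73.0 for those of the distal colon. The mean changes were −50.6 and 39.5, which differ by 90.1 percentile points. The difference was not tested. It rests on matching libraries by replicate number, and the largest change at each site comes from a library with no peak. The same pattern was looked for at 15 regions, and this was the only one that showed it. Its share over all regions was not counted, so that 1 of 15 cannot be set against a background. No library stood apart from the other 5 of its colon site in the 6 sets examined.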

How the results depend on the processing

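The number of regions near the 5 genes was 16 with a −log10 q of at least 5, 7 in lists of equal length, 17 with a flank of 25 kb, 36 with 100 kb and 30 with summits at most 150 bp apart, in place of 26. It ran from 19 to 25 when 1 replicate number was left out. The count called in all 12 libraries stayed at 1 except in lists of equal length, where it was 0. The count called in every proximal and no distal library was 1 with the q limit (Atp2b1 site 8). It was 0 to 2 with a replicate number left out, the 2 being without replicate 2. The shares of all regions with that pattern in these settings were not counted. The difference in peaks per 1000 between the sites ran from −0.034 without replicate 3 to 0.303 without replicate 2, was −0.00366 with a flank of 100 kb, and moved by less than 1 SD (0.202) in every setting run. A start-site limit of 1 kb left 0 genes in place of 1. A Cdx2 motif lay within 50 bp of 48.9% and within 100 bp of 67.4% of the 92 summits.

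Of the common regions, 229 passed the site test on normal scores, 703 without centring, and 48 to 325 with 1 replicate number left out, 48 without replicate 2 and 99 without replicate 1. For the medium, 0 passed on normal scores, 4 without centring, 41 on −log10 q, 5 with the q limit and 0 to 5 with 1 number left out. For the difference of the medium effect between the sites, 0 passed in each setting. At Vdr site 2 the site difference had an adjusted p of 0.037 with the q limit (−0.50), 0.0743 on −log10 q, 0.806 on normal scores (−0.13) and 0.0719 to 0.388 with 1 number left out. Its medium value ran from −0.19 without replicate 1 to 0.23 without replicate 3 (adjusted p = 0.584), a change of sign. Its difference of medium effects turned to −0.38 on normal scores and −0.03 without centring, neither past the test. The cause was not tested.

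Libraries of the same replicate number correlated over 0.1 in their deviations in 13 of 18 pairs (−0.01 to 0.57). Among pairs of the same colon site it was 5 of 6. The paper also reports that most variation in Cdx2 binding came from the independent mice. Both are reasons for a block. The main limma fit had none, because the labels tie no replicate number to a mouse. The exact permutation tests and line means did pair by number, since each line averages the libraries of the same site and number. The medium changes given by replicate number did so as well. Those values rest on the number marking the same organoid line, which was not tested. With a replicate block, 469 regions passed the site test and 80 the medium test, 83 with a replicate block by organoid line, and Vdr site 2 had an adjusted p of 0.0478 for the site. Depth and the enrichment of each library limit what a missing peak means. The study's reporting summary gives the share of reads in peaks for each library. It tended to be lower in distal libraries and was not used here.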
